A study of Mus musculus with 35 samples.

Results

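The interleukin-1 (IL-1) family and its receptors were followed in injured mouse skin as 9 genes, taken by gene symbol from the deposited count tables of 22831 symbols each. They were the ligands Il1a, Il1b, Il33 and Il18, the receptor antagonist Il1rn, the receptors Il1r1, Il1rl1 and Il1rap, and the decoy receptor Il1r2. All 9 were found in both tables and all 9 passed the filter on low counts in every comparison. The libraries came from full-thickness wounds of the back skin of adult mice of both sexes. Col5a1CKO mice carried Col1a2CreERT and Col5a1fl/fl, so that tamoxifen removed Col5a1 (collagen V alpha 1) from cells with an active Col1a2 promoter, chiefly fibroblasts. WT mice were littermates with Col5a1fl/fl and no Cre, which also received tamoxifen and wounds. At day 14 there were 7 WT wounds, 7 Col5a1CKO wounds and 3 Col5a1CKO wounds injected with WT fibroblasts, and 3 WT and 3 Col5a1CKO wounds were taken at day 19. In the cilengitide experiment 4 WT and 4 Col5a1CKO mice received vehicle and 4 Col5a1CKO mice received cilengitide, a small-molecule inhibitor of the integrin alpha v beta 3.

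IL-1 signalling is among the earliest cytokine responses to skin injury. Il1a and Il1b encode IL-1 alpha, which is stored in keratinocytes and other cells, and IL-1 beta, which is made mainly by myeloid cells and is cut into its active form by the inflammasome. Both bind IL-1R1 (Il1r1), which signals only with the accessory protein encoded by Il1rap, whereas the antagonist encoded by Il1rn occupies IL-1R1 without signalling and IL-1R2 (Il1r2) binds the ligands without a signalling domain. IL-33 is a nuclear protein of barrier cells that is released on damage and binds ST2 (Il1rl1), again with the accessory protein, and IL-18 is an inflammasome substrate with its own receptor pair. On mouse build NCBI37/mm9, Il1r2, Il1r1 and Il1rl1 lie in a row on the plus strand of chromosome 1, from 40141613 to 40182064, 40281925 to 40373043 and 40486415 to 40522260. Il1a and Il1b are neighbours on the minus strand of chromosome 2 (129125346 to 129135708 and 129190306 to 129196875), and Il1rn lies apart on the plus strand of the same chromosome (24192373 to 24207014). The other members are on the plus strands of chromosome 16 (Il1rap, 26581790 to 26730203), chromosome 19 (Il33, 29999604 to 30035194) and chromosome 9 (Il18, 50383378 to 50389942).

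The promoters of 3 members are shown because these genes carry the main results: Il1b had the largest change in the cilengitide experiment, and Il18 and Il1r1 were called in 6 and 4 of the 9 comparisons between groups. Il1rap was also called in 4 of them, and its promoter, which held no match to the motifs named below, is not shown. The sequences are the 250 bases before the start site, 5′ to 3′ on the strand of the gene, from RefSeq on build GRCm38.p6, a later build than that of the counts. Capitals mark matches to the motifs searched on both strands, which were the TATA box (TATAAA), AP-1 (TGANTCA), C/EBP (TTNNGCAAT) and the kappaB consensus.
Il1b, chr2:129371140-129371389, minus strand: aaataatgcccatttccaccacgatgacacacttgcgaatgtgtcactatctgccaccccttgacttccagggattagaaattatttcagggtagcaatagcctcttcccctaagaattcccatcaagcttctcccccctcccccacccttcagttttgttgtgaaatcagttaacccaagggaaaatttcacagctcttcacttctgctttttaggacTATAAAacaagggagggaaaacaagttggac
Il1r1, chr1:40266336-40266585, plus strand: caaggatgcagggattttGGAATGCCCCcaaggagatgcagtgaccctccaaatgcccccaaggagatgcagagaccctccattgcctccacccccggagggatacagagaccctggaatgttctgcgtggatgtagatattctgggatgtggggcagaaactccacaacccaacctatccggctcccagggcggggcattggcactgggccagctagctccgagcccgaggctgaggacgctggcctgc
Il18, chr9:50554450-50554699, plus strand: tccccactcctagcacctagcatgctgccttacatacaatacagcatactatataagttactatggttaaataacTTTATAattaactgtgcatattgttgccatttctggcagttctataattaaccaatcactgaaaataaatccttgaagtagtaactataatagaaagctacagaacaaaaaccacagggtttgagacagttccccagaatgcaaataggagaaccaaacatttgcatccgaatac
Il1b had a TATA box 31 bases before its start, and its neighbour Il1a had a TATA box 32 bases before its start and an AP-1 match 12 bases before it. In Il1r1, which has a further RefSeq start upstream, the kappaB match began 232 bases before the start shown. In Il18 the only match was a TATA box on the opposite strand, 175 bases before the start. Over all 32851 promoter windows of 300 bases (250 before and 50 after the start), a TATA box was found in 13.6%, an AP-1 match in 7.81%, a kappaB match in 8.46% and a C/EBP match in 2.18%. Of the 9 members, 5 had a TATA box, 2 an AP-1 match, 1 a kappaB match and 0 a C/EBP match in at least 1 of their windows. These matches describe letters only.

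Gene totals ran from 15043838 to 35702566 counts per wound in the fibroblast and time-course libraries and from 51211643 to 68266808 in the cilengitide libraries. Col5a1 itself ranged over 345 to 2404 CPM (library-scaled counts after TMM normalization, per 1e6) in the WT wounds of day 14 and over 172 to 668 CPM in those of Col5a1CKO, so the groups overlapped. When GC-rich genes were set against GC-poor genes on the log2 scale, the 23 fibroblast and time-course libraries parted into 2 sets 1.54 apart. From day 14 the lower set held a to d of the WT replicates and a to e of those of Col5a1CKO, and the upper set held all other libraries. Within the upper set the 3 WT wounds of day 14 had RNA of Y-linked genes, whereas the 2 Col5a1CKO wounds and the 3 wounds with WT fibroblasts had Xist, so sex and genotype cannot be told apart there. At day 19 all 3 Col5a1CKO wounds had Xist, and of the WT wounds 2 had Xist and 1 had Y-linked RNA. In the cilengitide experiment 1 Col5a1CKO vehicle library (replicate 2) held neither Xist nor Y-linked RNA, and the other 3 had Y-linked RNA. The WT vehicle and the cilengitide wounds each had 2 libraries with Xist and 2 with Y-linked RNA. Sex was thus not balanced in the comparisons with Col5a1CKO vehicle wounds, and its part in them was not tested. For the Col5a1CKO wounds of day 19 a treatment field names WT fibroblasts and the titles do not, and the titles were followed. Levels of cell type markers were compared as well. Summed keratinocyte markers were 32870 to 160500 CPM in WT wounds of day 14 and 43.4 to 62360 CPM in Col5a1CKO wounds, with overlap. Summed leukocyte markers (Ptprc and Itgam) were 54.8 to 217 CPM and 290 to 1298 CPM, without overlap. In bulk tissue, fewer cells of a type and less RNA per cell cannot be told apart. By the study's methods the replicates were biologically separate, and the labels do not say which wounds came from the same litter.

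At day 14 Il1r1 and Il1rl1 were higher and Il18 was lower in Col5a1CKO than in WT wounds, and the remaining 6 members did not pass the test. The calls required 2-fold or more and p under 0.05 in edgeR's quasi-likelihood test, adjusted by Benjamini-Hochberg over all genes tested. By this rule 5.57% of all 14368 genes tested were higher and 2.71% were lower, against 2 and 1 of the 9 members. The median log2 fold change was 1.22 over the members and -0.03 over all genes. In the vehicle wounds of the cilengitide experiment 7 members were higher in Col5a1CKO (all but Il33 and Il18), where 17.5% of all genes were higher, and Il18 was lower, where 13.4% of all genes were lower. The members' median log2 fold change was 2.74 there, and 0.02 over all genes. Col5a1CKO wounds given cilengitide had 3 members lower than vehicle (Il1b, Il1rl1 and Il1rap), where 6.59% of all genes were lower, and had Il18 higher, where 6.48% were higher. The members' median log2 fold change was -2.21 and that of all genes was -0.06. DESeq2 and a fit of all groups together each called 7 members lower, where 1529 of 19351 and 1140 of 15916 genes were lower. With 1 wound left out 0 to 6 members were lower, and 0 without vehicle replicate 3 or cilengitide replicate 2 or 3. The cilengitide and genotype comparisons of this experiment share the Col5a1CKO vehicle wounds.

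**Figure D1:**
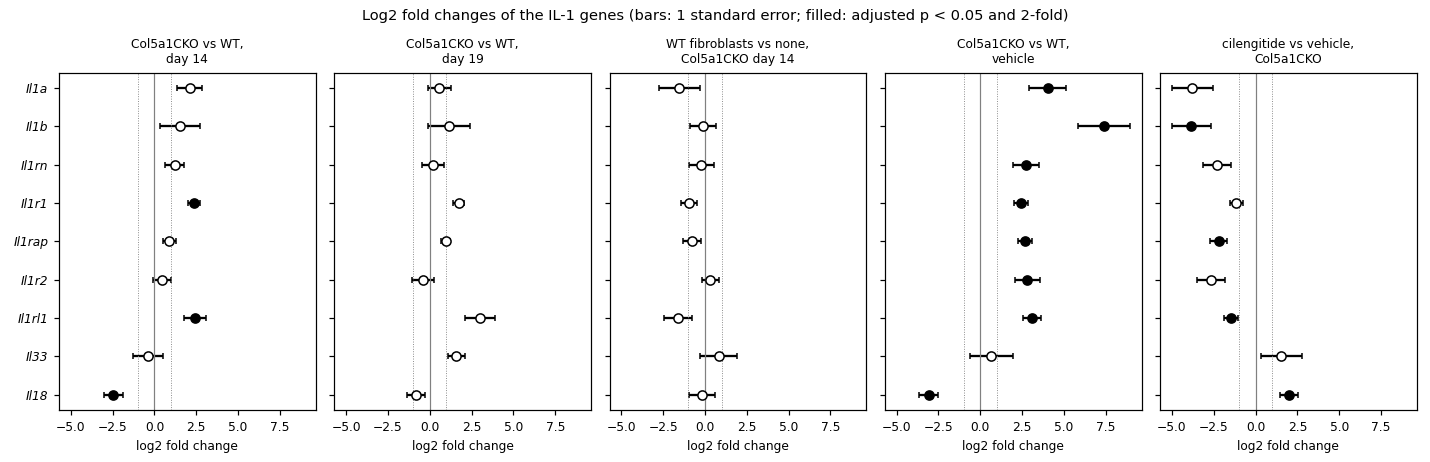
Log2 fold changes (x axis) of the 9 IL-1 genes (y axis) in 5 comparisons, with bars of 1 standard error, filled points for called genes and dotted lines at 2-fold. In the vehicle panel 8 members lie to the right, of which 7 are called, and Il18 lies to the left, with Il1b at 7.39. In the cilengitide panel Il18 and Il33 lie to the right and the other 7 to the left.

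Il1b, the IL-1 beta gene, had the widest range of the members. At day 14 the WT wounds had a lowest value of 8.0, a median of 77.0 and a highest of 2255 CPM, and the Col5a1CKO wounds had 292, 1471 and 5203 CPM. Of the WT wounds, replicates c and d (2255 and 1849 CPM) lay within the range of the Col5a1CKO wounds and the other 5, at 8.0 to 147 CPM, lay below it. Replicates c and d were also the WT wounds of this day with Xist and not Y-linked RNA, and their summed neutrophil markers (6518 and 8998 CPM) were above those of the other 5 (1145 to 3206 CPM). The part of either in the Il1b level was not tested. Its log2 fold change of 1.55 (standard error 1.2, edgeR adjusted p = 0.427) did not pass. It was 0.92 within the lower library set (adjusted p = 0.729) and 4.77 within the upper set (adjusted p = 0.121). In the vehicle wounds Il1b was 6.79, 94.1, 23.6 and 5.51 CPM in WT and 1602, 625.5, 10630 and 9940 CPM in Col5a1CKO. Every Col5a1CKO vehicle wound was above every WT vehicle wound, with a log2 fold change of 7.39 (standard error 1.55, edgeR adjusted p = 0.00652). Summed neutrophil markers were 96.4 to 2209 CPM in these WT wounds and 1684 to 44930 CPM in these Col5a1CKO wounds, and their part in the difference was not tested.

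With cilengitide Il1b was 264, 87.2, 191 and 1045 CPM, and only the highest of these wounds reached the range of the vehicle wounds. Against Col5a1CKO vehicle the log2 fold change was -3.84 (standard error 1.17, edgeR adjusted p = 0.0469). The call was lost without vehicle replicate 3 or 4 or without cilengitide replicate 1, 2 or 3, at log2 fold changes of -3.35 to -3.64 and adjusted p of 0.0663 to 0.12. Against WT vehicle the cilengitide wounds stood at a log2 fold change of 3.61, which missed the threshold (standard error 1.17, adjusted p = 0.0604). It passed without WT vehicle replicate 2, at 5.07 (adjusted p = 0.0248). Summed neutrophil markers with cilengitide were 3153 to 7269 CPM (median 5056), within the wide range of the vehicle Col5a1CKO wounds (median 14100). All 9 neutrophil markers tested stood lower than with vehicle, at a median log2 fold change of -2.69. Summed monocyte or macrophage markers were 1715 to 2340 CPM with cilengitide and 3957 to 9107 CPM in Col5a1CKO vehicle wounds, without overlap. The part of these cells in the Il1b difference was not tested.

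Il1a, the IL-1 alpha gene, had a lowest value of 25.8, a median of 50.7 and a highest of 103 CPM in WT wounds of day 14, and 8.74, 86.9 and 637 CPM in Col5a1CKO wounds. The Col5a1CKO wounds were split: replicates a, c and d were at 414 to 637 CPM, above every WT wound, and replicate e was below every WT wound. The log2 fold change was 2.10 (standard error 0.76, edgeR adjusted p = 0.0905), and it passed without Col5a1CKO replicate e (2.33, adjusted p = 0.0423). In vehicle wounds Il1a was 35.1, 29.8, 44.1 and 31.7 CPM in WT and 138, 22.7, 1117 and 1088 CPM in Col5a1CKO. Here Col5a1CKO replicate 2 was again below all WT wounds. The genotypes differed by a log2 fold change of 4.02 (standard error 1.10, edgeR adjusted p = 0.0187), and it was 3.96 without WT vehicle replicate 4 (adjusted p = 0.0527). With cilengitide the values were 29.5, 18.8, 24.6 and 99.3 CPM, and the log2 fold change of -3.78 against Col5a1CKO vehicle just missed the threshold (standard error 1.21, adjusted p = 0.0554).

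Il1rn, the antagonist gene, followed Il1a more closely than it followed Il1b. At day 14 it had a lowest value of 115, a median of 221 and a highest of 567 CPM in WT and 60.6, 592 and 1244 CPM in Col5a1CKO wounds, and the groups overlapped (log2 fold change 1.22, standard error 0.57, edgeR adjusted p = 0.181). Within the upper library set it was called at 1.32 (adjusted p = 0.0486). The vehicle wounds were at 168, 149.5, 225 and 167 CPM in WT and 610, 132.5, 1783 and 2392 CPM in Col5a1CKO. The log2 fold change was 2.74 (standard error 0.78, edgeR adjusted p = 0.0219), and the call was lost without WT vehicle replicate 1, 2 or 4 (2.66 to 2.71, adjusted p of 0.0542 to 0.0576). With cilengitide Il1rn was 191, 155, 175 and 475 CPM, a log2 fold change of -2.30 that did not pass (standard error 0.84, adjusted p = 0.0780). Across libraries, Spearman's rho between Il1rn and Il1a was 0.93 over the 23 fibroblast and time-course wounds and 0.85 over the 12 cilengitide wounds, and between Il1rn and Il1b it was 0.78 and 0.64.

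**Figure D2:**
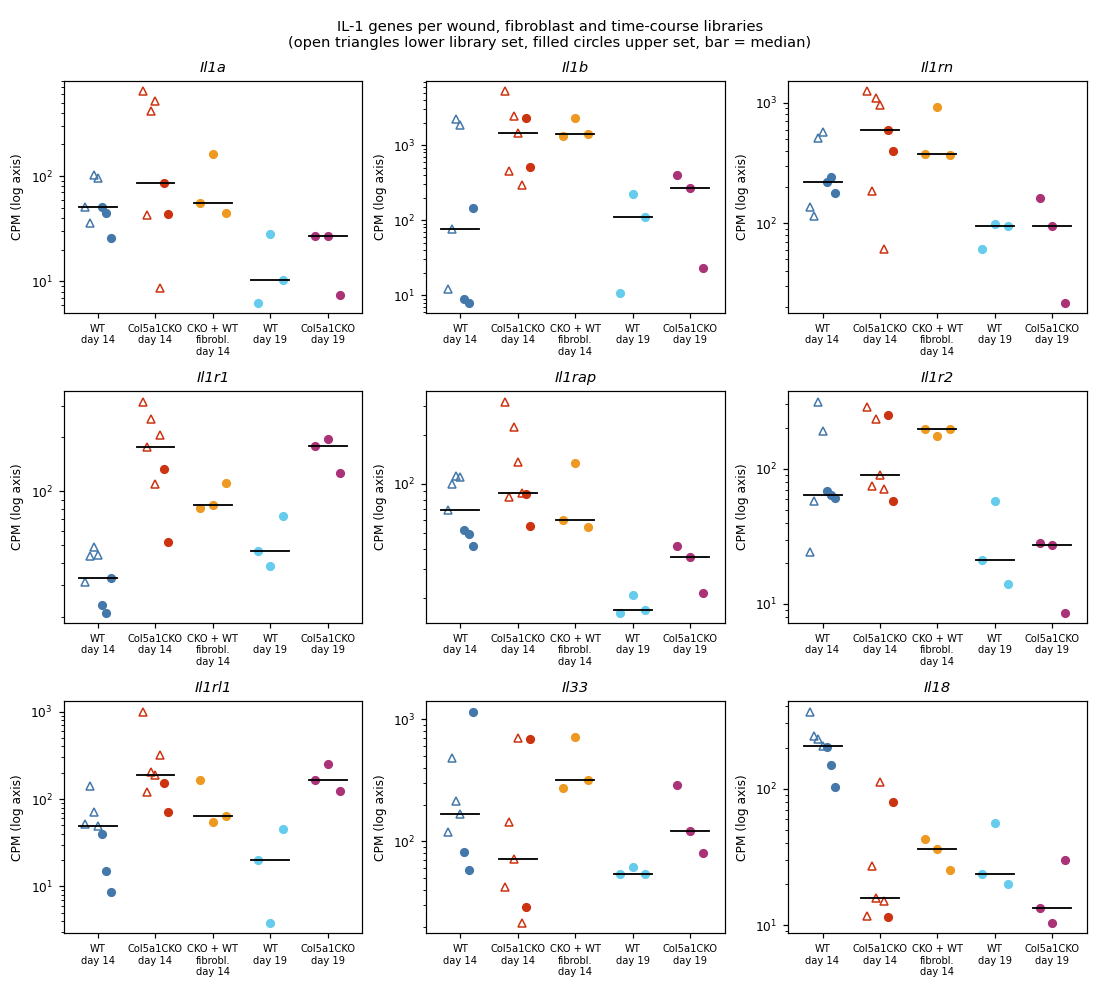
CPM (log axes) of each of the 9 genes in the 23 wounds of the fibroblast and time-course libraries, by group, with a bar at the median, open triangles for the lower library set and filled circles for the upper set. Il1r1 of every Col5a1CKO wound lies above every WT wound of the same day, and Il1b of WT wounds of day 14 parts into 2 wounds at 1849 and 2255 CPM and 5 at 147 CPM or less.

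The balance of these ligands was compared as ratios of counts within a wound, a measure that does not depend on library scaling. The mean log2 ratio of Il1rn to Il1b was 3.37 ± 1.94 in WT vehicle, -2.07 ± 0.50 in Col5a1CKO vehicle and -0.23 ± 0.82 in Col5a1CKO cilengitide wounds (SD, n = 4 each). Antagonist counts exceeded Il1b counts in all 4 WT vehicle wounds (lowest log2 ratio 0.67), and Il1b counts exceeded antagonist counts in all 4 Col5a1CKO vehicle wounds. Counts were not divided by transcript length, which was 2464 bp for Il1rn and 1327 bp for Il1b in the fibroblast and time-course libraries. Equal counts are therefore not equal levels. The difference between genotypes was -5.43 and that between cilengitide and vehicle was 1.84, each without overlap of the groups (2-sided exact permutation p = 0.0286 for each, the smallest that 4 against 4 allows). At day 14 the mean was 1.43 ± 2.92 in WT against -1.39 ± 0.74 in Col5a1CKO (SD, n = 7 wounds each, exact permutation p = 0.0303). It was 0.37 ± 1.92 in WT against -0.99 ± 0.78 in Col5a1CKO at day 19 (SD, n = 3 wounds each, exact p = 0.3, where 0.1 is the smallest possible). None of the 28 ratio tests passed after Benjamini-Hochberg adjustment, and the smallest adjusted p was 0.121.

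The ratio of Il1a to Il1b was 1.03 ± 1.94 in WT vehicle and -3.69 ± 0.74 in Col5a1CKO vehicle wounds (log2, SD, n = 4 each, no overlap, exact permutation p = 0.0286, adjusted p = 0.121). Cilengitide left it at -2.93 ± 0.51, overlapping the vehicle wounds (exact permutation p = 0.114). Il1b relative to Ptprc, the pan-leukocyte gene CD45, was -1.38 ± 1.77 in WT vehicle and 2.45 ± 1.09 in Col5a1CKO vehicle wounds without overlap (exact permutation p = 0.0286, adjusted p = 0.121). At day 14 the same ratio was 0.32 ± 3.10 in WT and 1.98 ± 0.86 in Col5a1CKO wounds (exact permutation p = 0.195). The ratio of the decoy Il1r2 to Il1r1 was 1.27 ± 1.04 in WT and -0.33 ± 0.84 in Col5a1CKO wounds of day 14 (exact permutation p = 0.0105, adjusted p = 0.121), and -0.97 ± 1.48 and -3.12 ± 0.65 at day 19 (exact p = 0.1, without overlap). In vehicle wounds it was 0.90 ± 0.91 in WT and 0.83 ± 2.33 in Col5a1CKO (exact permutation p = 0.943), and cilengitide wounds were at -0.38 ± 0.64. With WT fibroblasts it was 1.05 ± 0.23, against -0.33 ± 0.84 in the Col5a1CKO wounds without them (exact permutation p = 0.05, adjusted p = 0.16). All wounds with fibroblasts (0.83 to 1.29) belong to the upper library set, where Col5a1CKO wounds f and g were at 0.915 and 0.157. The Col5a1CKO wounds of the lower set were at -1.546 to -0.136, so treatment and library set are largely confounded here.

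**Figure D3:**
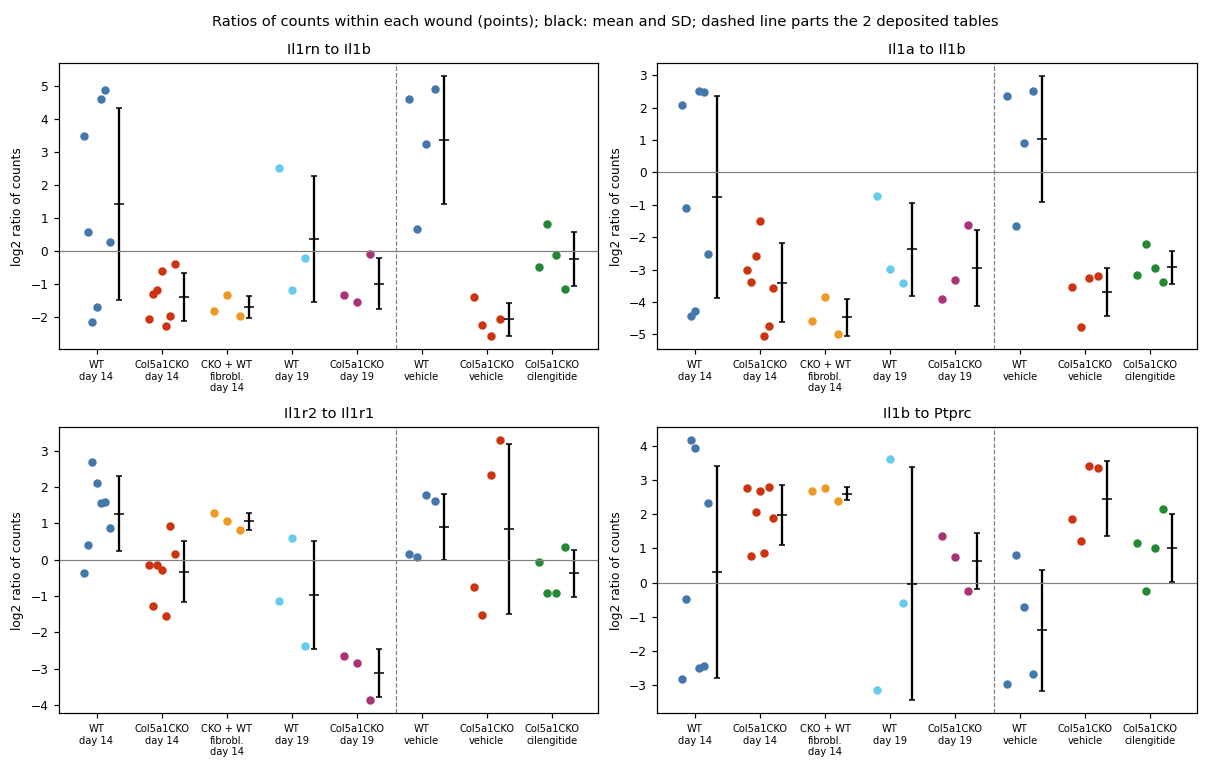
Log2 ratios of counts (y axes) for Il1rn to Il1b, Il1a to Il1b, Il1r2 to Il1r1 and Il1b to Ptprc in each wound (points), with the mean and SD of each group in black. In the panel of Il1rn to Il1b the WT vehicle wounds lie between 0.67 and 4.92, the Col5a1CKO vehicle wounds between -2.58 and -1.39 and the cilengitide wounds between them, at -1.14 to 0.83.

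Il1r1, the signalling receptor, gave the most even difference between genotypes. At day 14 it had a lowest value of 21.0, a median of 32.9 and a highest of 49.1 CPM in WT wounds and 51.9, 178 and 317 CPM in Col5a1CKO wounds. The groups did not overlap, and the gene was 5.08-fold higher in Col5a1CKO (log2 fold change 2.35, standard error 0.35, edgeR adjusted p = 0.00369). The call held without each of the 14 wounds in turn and within the lower library set, where it was 2.34. Within the upper set it was 1.94 and did not pass (adjusted p = 0.0624). Vehicle wounds were at 36.6, 50.8, 24.4 and 24.8 CPM in WT and 281, 226, 152 and 86.7 CPM in Col5a1CKO, again without overlap (log2 fold change 2.41, standard error 0.42, edgeR adjusted p = 0.00328). Cilengitide wounds, at 73.7, 59.3, 88.1 and 113 CPM, lay between the others. They were above every WT vehicle wound (log2 fold change 1.29, standard error 0.28, adjusted p = 0.0253), and the comparison with Col5a1CKO vehicle just missed the threshold (-1.15, standard error 0.37, adjusted p = 0.0544). The difference from WT was no longer called when any of 5 wounds was left out (WT vehicle replicates 3 and 4 and cilengitide replicates 2 to 4, 1.13 to 1.43, adjusted p of 0.0517 to 0.0645). Over all genes, 3, 1 and 1 were called higher and 0 lower without cilengitide replicates 2, 3 and 4 in turn. With all wounds kept, 799 genes were higher and 532 lower. Summed fibroblast markers were 8577 to 84950 CPM in the WT wounds of day 14 and 31780 to 129200 CPM in those of Col5a1CKO, and their part in the Il1r1 difference was not tested.

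Il1rap, the accessory protein shared by IL-1R1 and ST2, was 41.5 to 111 CPM (median 69.3 CPM) in WT and 55.4 to 321 CPM (median 87.6) in Col5a1CKO wounds of day 14, which overlapped (log2 fold change 0.89, standard error 0.39, edgeR adjusted p = 0.154). In vehicle wounds it was 12.7, 14.6, 14.3 and 16.2 CPM in WT and 90.9, 29.9, 129 and 134 CPM in Col5a1CKO. The WT values were close together and below every Col5a1CKO value (log2 fold change 2.68, standard error 0.43, edgeR adjusted p = 0.00240). Cilengitide wounds had 17.2, 13.7, 14.9 and 37.0 CPM, and 3 of them fell near the WT range. Against Col5a1CKO vehicle the log2 fold change was -2.21 (standard error 0.53, edgeR adjusted p = 0.0228), and the call was lost without vehicle replicate 3 or cilengitide replicate 1, 2 or 3 (-2.0 to -2.08, adjusted p of 0.0582 to 0.0653). In the fibroblast and time-course libraries Il1rap has 4 deposited RefSeq rows, of which the membrane form gave the day 14 values above and a shorter one is a soluble form. The cilengitide libraries have a single row for the gene, which does not part the forms. The forms share exons, so the rows are not independent and each can hold reads of the other form. At day 14 the membrane row had a median of 10.8 RPKM (counts per kilobase of the row and per 1e6 counts of the library) in WT and 14.95 RPKM in Col5a1CKO wounds, and the soluble row 3.60 and 8.54 RPKM. The counts of the soluble row were 0.079 to 0.381 times those of the membrane row over the 23 libraries.

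Il1r2, the decoy receptor, was 24.2 to 315 CPM (median 63.7) in WT and 57.9 to 287 CPM (median 89.5) in Col5a1CKO wounds of day 14, with a log2 fold change of 0.46 that did not pass (standard error 0.55, edgeR adjusted p = 0.624). The WT wounds with the highest Il1r2 were again replicates c and d, at 315 and 189 CPM. Vehicle wounds had 40.8, 53.4, 83.1 and 75.5 CPM in WT and 166, 79.1, 765 and 845 CPM in Col5a1CKO (log2 fold change 2.82, standard error 0.76, edgeR adjusted p = 0.0174). Only Col5a1CKO replicate 2 lay within the WT range. With cilengitide Il1r2 was 71.0, 31.5, 46.8 and 145 CPM, and the log2 fold change of -2.65 just missed the threshold (standard error 0.85, adjusted p = 0.0549).

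Il1rl1, the IL-33 receptor gene, had a lowest value of 8.52, a median of 48.8 and a highest of 140 CPM in WT and 70.5, 189 and 1001 CPM in Col5a1CKO wounds of day 14. It was called higher (log2 fold change 2.43, standard error 0.66, edgeR adjusted p = 0.0307), although the groups overlapped through WT replicates b and c. The call was lost without WT replicate d, e or f or Col5a1CKO replicate a or e (1.70 to 2.42, adjusted p of 0.0514 to 0.0797, lowest without Col5a1CKO replicate a) and within either library set alone (2.22 and 2.51, adjusted p = 0.0793 and 0.0916). Vehicle wounds had 23.6, 57.2, 24.4 and 12.5 CPM in WT and 377, 208, 300 and 142 CPM in Col5a1CKO without overlap (log2 fold change 3.08, standard error 0.53, edgeR adjusted p = 0.00311). Cilengitide wounds had 144, 49.6, 66.5 and 113 CPM, of which replicate 1 alone reached the range of the vehicle wounds. This gave a log2 fold change of -1.45 (standard error 0.42, edgeR adjusted p = 0.0399), and the call was lost without vehicle replicate 1 or 3 or cilengitide replicate 2, 3 or 4 (-1.17 to -1.49, adjusted p of 0.0749 to 0.114). In the fibroblast and time-course table these values are those of the shorter of 2 RefSeq rows, that of the soluble form of ST2, which shares exons with the membrane form and can hold its reads. This row had a median of 10.8 RPKM in WT and 47.0 RPKM in Col5a1CKO wounds of day 14, and the longer membrane row had 2.96 and 12.1 RPKM. The count of the shorter row was 1.54 to 2.84 times that of the longer row in every library.

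Il33, the ligand of this receptor, varied widely within groups. At day 14 it had a lowest value of 58.1, a median of 168 and a highest of 1153 CPM in WT and 21.5, 71.6 and 708 CPM in Col5a1CKO wounds. The log2 fold change of -0.40 did not pass (standard error 0.89, edgeR adjusted p = 0.816), and it was 0.39 without WT replicate g, the highest wound. In vehicle wounds it was 76.2, 240, 70.7 and 45.9 CPM in WT and 76.8, 26.9, 5.04 and 612 CPM in Col5a1CKO, so the Col5a1CKO wounds lay on both sides of the WT wounds (log2 fold change 0.67, standard error 1.26, adjusted p = 0.680). Without Col5a1CKO replicate 4 the log2 fold change was -1.58. All 4 cilengitide wounds, at 269, 803, 601 and 439 CPM, were above every WT vehicle wound (log2 fold change 2.28, standard error 0.57, edgeR adjusted p = 0.0320). That call was lost without any 1 of 6 wounds (WT vehicle replicate 1, 3 or 4 or cilengitide replicate 2, 3 or 4, at 2.02 to 2.38, adjusted p of 0.0608 to 0.082). Over all genes, 3, 1 and 1 were called without cilengitide replicates 2, 3 and 4 in turn. The sum of stressed keratinocyte markers (Krt6a, Krt6b, Krt16 and Krt17) moved the same way as Il33, from 3492 to 15580 CPM in WT vehicle to 16840 to 28070 CPM in cilengitide wounds. Summed keratinocyte markers, a separate list, stood the other way, at 64040 to 101100 CPM in WT vehicle and 35490 to 70720 CPM with cilengitide. The part of either list in the Il33 difference was not tested.

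Il18 was the member that was lower in Col5a1CKO wounds. At day 14 it had a lowest value of 103, a median of 204 and a highest of 366 CPM in WT and 11.4, 15.9 and 112 CPM in Col5a1CKO wounds. Only Col5a1CKO replicate d (112 CPM) reached the WT range. The gene was 5.47-fold lower (log2 fold change -2.45, standard error 0.56, edgeR adjusted p = 0.0150), called without each of the 14 wounds in turn and within the lower library set (-2.86), but not within the upper set (-1.62, adjusted p = 0.242). Vehicle wounds had 126, 82.8, 159 and 161 CPM in WT and 6.75, 8.20, 14.4 and 35.8 CPM in Col5a1CKO without overlap (log2 fold change -3.08, standard error 0.57, edgeR adjusted p = 0.00395). The cilengitide wounds were close together at 76.5, 62.0, 64.4 and 53.9 CPM, above every Col5a1CKO vehicle wound (log2 fold change 1.99, standard error 0.52, edgeR adjusted p = 0.0298) and below every WT vehicle wound (-1.04, standard error 0.22, adjusted p = 0.0238). The rise was no longer called without vehicle replicate 3 or cilengitide replicate 1, 2 or 3 (1.93 to 2.09, adjusted p of 0.0526 to 0.0801), and the difference from WT was lost without WT vehicle replicate 3 or 4 or cilengitide replicate 2, 3 or 4 (-0.91 to -1.04, adjusted p of 0.0490 to 0.0631, in part by falling under 2-fold). Over all genes, 3, 1 and 1 were called against WT vehicle without cilengitide replicates 2, 3 and 4 in turn. Summed keratinocyte markers moved with Il18. They were 64040 to 101100 CPM in WT vehicle, 75.4 to 12840 CPM in Col5a1CKO vehicle and 35490 to 70720 CPM in cilengitide wounds, and their part in the Il18 differences was not tested.

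**Figure D4:**
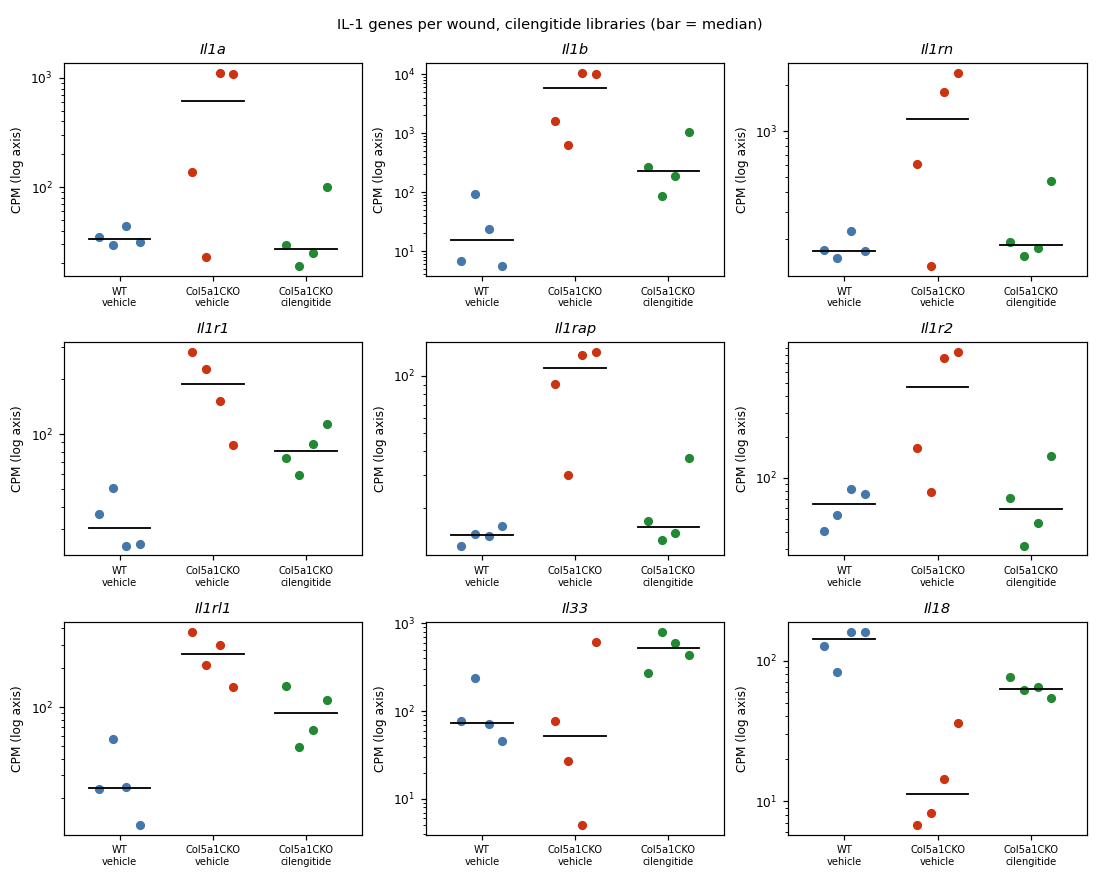
CPM (log axes) of each of the 9 genes in the 12 wounds of the cilengitide experiment, by group, with a bar at the median. The 3 groups do not overlap for Il18, whereas for Il1a, Il1b, Il1rn, Il1r2, Il1rl1 and Il1rap the cilengitide wounds overlap both other groups.

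**Figure D5:**
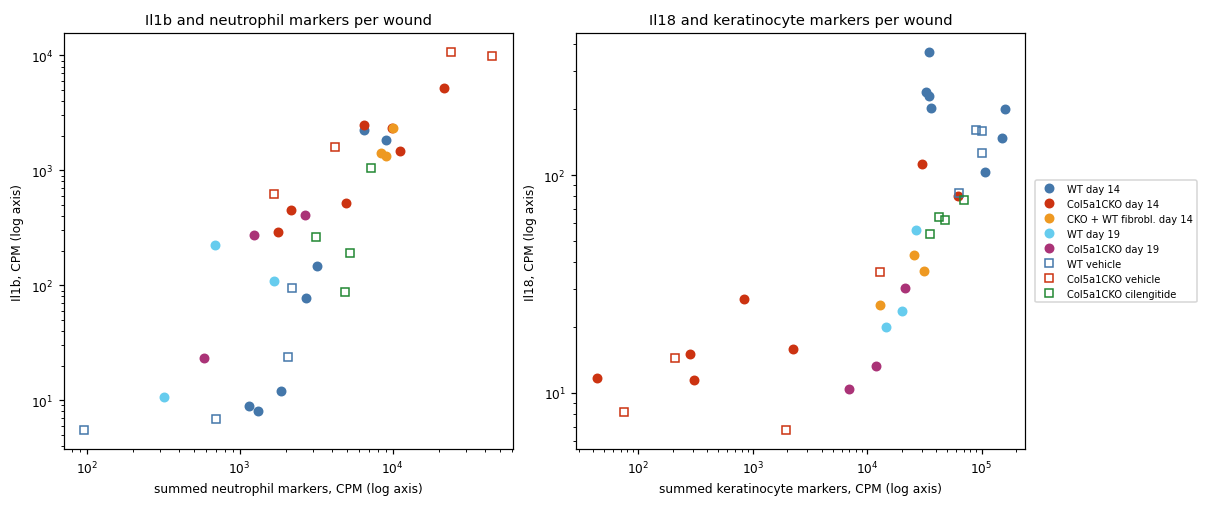
Il1b against the summed neutrophil markers (left) and Il18 against the summed keratinocyte markers (right), in CPM on log axes, for every wound of both tables, with circles for the fibroblast and time-course libraries and open squares for the cilengitide libraries, whose CPM were scaled separately. Il1b is highest (10630 and 9940 CPM) where neutrophil markers are highest (24010 and 44930 CPM), and Il18 exceeds 100 CPM only where keratinocyte markers are at 29990 CPM or more.

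At day 19 none of the 9 members was called between genotypes, where 0.0198% of 15136 genes were higher and 0.0% lower. At an unadjusted p under 0.05 with 2-fold, 3 members were higher (Il1r1, Il1rl1 and Il33), where 815 of 15136 genes were higher. DESeq2 called the same 3 members, where 708 of 18932 genes were higher. Il1r1 was 46.3, 38.4 and 72.8 CPM in WT and 180, 196 and 126 CPM in Col5a1CKO wounds, without overlap (log2 fold change 1.73, standard error 0.34, edgeR adjusted p = 0.111, or 2.06 and 0.0332 without WT replicate c). Il1rl1 was 20.3, 3.83 and 46.0 CPM in WT and 167, 253 and 124 CPM in Col5a1CKO wounds, also without overlap (2.98, standard error 0.90, adjusted p = 0.148). Il33 was 54.4, 62.2 and 54.3 CPM in WT and 287, 121 and 80.8 CPM in Col5a1CKO wounds (1.59, standard error 0.49, adjusted p = 0.148). Il1b was 10.6, 223 and 110 CPM in WT and 405, 273 and 23.4 CPM in Col5a1CKO wounds, with overlap (1.15, standard error 1.26, adjusted p = 0.581). The genotype effect itself did not differ between the days at the threshold for any member, nor for any of 15955 genes (0.0% called by edgeR, with 448 higher and 491 lower at an unadjusted p under 0.05). DESeq2 called 24 higher and 19 lower, none of them members. The differences, day 19 minus day 14, ran from a log2 value of -1.58 for Il1a (standard error 1.28) to 1.95 for Il33 (standard error 1.49). For Il1r1 the difference was -0.64 (standard error 0.57) and for Il18 it was 1.61 (standard error 0.95).

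Between day 14 and day 19 most members stood lower at the later day in both genotypes. In WT wounds 2 members were called lower (Il1rap and Il18), where 4.25% of all genes were lower and 1.5% higher, and in Col5a1CKO wounds 2 were called lower (Il1r2 and Il1rap), where 3.85% were lower and 1.87% higher. Il1rap fell from a median of 69.3 CPM to 16.1, 20.6 and 16.7 CPM in WT (log2 fold change -2.09, standard error 0.43, edgeR adjusted p = 0.0188) and from 87.6 CPM to 41.3, 35.5 and 21.3 CPM in Col5a1CKO wounds (-2.13, standard error 0.58, adjusted p = 0.04999). Il18 fell in WT wounds from a median of 204 CPM to 23.9, 56.2 and 20.1 CPM (-2.69, standard error 0.49, adjusted p = 0.0109), and Il1r2 fell in Col5a1CKO wounds from 89.5 CPM to 28.5, 27.5 and 8.63 CPM (-2.83, standard error 0.70, adjusted p = 0.0390). Summed keratinocyte markers were 32870 to 160500 CPM in WT wounds of day 14 and 14550 to 26610 CPM in those of day 19. Their part in the Il18 difference was not tested. Il1r1 did not pass in either genotype (0.63 in WT and -0.10 in Col5a1CKO). All day 19 wounds belong to the upper library set, and within that set the WT calls of Il1rap (-1.29) and Il18 (-2.08) held, Il1rn was also called lower (-1.21, adjusted p = 0.0137), Il1r1 was called higher (1.18, adjusted p = 0.0386), and the value of Il1b turned from -2.49 to 1.15. Neither Col5a1CKO call held within that set or without any 1 of the day 19 wounds (adjusted p of 0.143 to 0.188). Over all genes, 0 were called within that set and without replicate a or b, and 12 were higher and 9 lower without replicate c. In WT the Il1rap call was lost without any 1 of the day 19 wounds (adjusted p of 0.0502 to 0.114), and that of Il18 without replicate a or c (0.0922 and 0.0835).

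Injection of WT fibroblasts into Col5a1CKO wounds was not followed by a called change in any member, or in any of 15660 genes by edgeR without a replicate block (0.0% higher and 0.0% lower), and DESeq2 called 9 genes higher and 10 lower, none of them members. At an unadjusted p under 0.05 there were 201 genes higher and 1800 lower, with none of the 9 members among them. Il1b was 1324, 2323 and 1414 CPM with fibroblasts, inside the range of the Col5a1CKO wounds without them (log2 fold change -0.11, standard error 0.79, adjusted p = 0.956). Il1r1 was 80.6, 84.3 and 111 CPM (-0.96, standard error 0.47, adjusted p = 0.407) and Il1rl1 was 167, 55.0 and 64.0 CPM (-1.62, standard error 0.82, adjusted p = 0.416). Against the 2 Col5a1CKO wounds of their own library set these values were 0.05 and -0.18, and those of Il1a and Il1rap turned from -1.53 to 0.45 and from -0.78 to 0.27. Il33 was 273, 711 and 321 CPM (0.83, standard error 1.10, adjusted p = 0.737). Relative to WT wounds of day 14, the wounds with fibroblasts had 1 member called higher and 1 called lower, where 3.77% of all genes were higher and 2.06% lower. Il1r1 was higher (1.54, standard error 0.30, edgeR adjusted p = 0.0124) and Il18, at 42.7, 36.2 and 25.4 CPM, was lower (-2.49, standard error 0.42, adjusted p = 0.00569), each without overlap. Summed keratinocyte markers were 12970 to 31270 CPM in the wounds with fibroblasts, below those of every WT wound of day 14 (32870 to 160500 CPM). Their part in the Il18 difference was not tested. The Il1r1 call was lost without fibroblast replicate c (1.34, adjusted p = 0.103). Against the 3 WT wounds of the upper set alone 5 members were higher, where 2999 of all 15133 genes tested were higher. The members were Il1b at 5.08 (adjusted p = 0.0349), Il1rn at 1.53, Il1r1 at 1.99, Il1r2 at 1.71 and Il1rl1 at 2.34. Sex and genotype cannot be told apart in that set.

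Cilengitide-treated Col5a1CKO wounds, set against WT vehicle wounds, had 2 members called higher (Il1r1 and Il33), where 5.15% of all genes were higher, and 1 called lower (Il18), where 3.43% were lower. The values of Il1a (log2 fold change 0.29), Il1rn (0.48), Il1r2 (0.21) and Il1rap (0.51) had standard errors of 0.50, 0.36, 0.46 and 0.31 and did not pass. Placed by median, cilengitide wounds stood between Col5a1CKO vehicle and WT vehicle wounds for Il1b, Il1rn, Il1r1, Il1rl1, Il1rap and Il18, below both for Il1a and Il1r2, and above both for Il33.

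The order of levels over the groups differed by member. Among the fibroblast and time-course wounds the median of Il1b ran from Col5a1CKO of day 14 through the wounds with fibroblasts, Col5a1CKO of day 19 and WT of day 19 to WT of day 14, and the only neighbours whose ranges did not overlap were the wounds with fibroblasts and Col5a1CKO of day 19. For Il1r1 the order was Col5a1CKO of day 19, Col5a1CKO of day 14, wounds with fibroblasts, WT of day 19 and WT of day 14, with a gap between the wounds with fibroblasts and WT of day 19. For Il18 the order began with WT of day 14, which was apart from the next group, the wounds with fibroblasts, and ended with Col5a1CKO of day 19. On the per-length scale, Il1b had the highest median level of the 9 genes in every group but WT of day 14, from 68.4 RPKM in WT of day 19 to 900 RPKM in the wounds with fibroblasts. In WT wounds of day 14 it was 41.1 RPKM, below Il18 (156 RPKM), Il1rn (56.6 RPKM) and Il33 (43.6 RPKM). Il1r1 had the lowest median in WT wounds of day 14, at 4.62 RPKM, and at 26.0 RPKM in Col5a1CKO wounds of that day it stood above Il33 (20.4 RPKM), Il1rap (14.95 RPKM) and Il18 (13.3 RPKM).

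Known transcriptional targets of IL-1 signalling, a list of 25 genes drawn up with earlier results of these data known, stood higher in Col5a1CKO wounds. At day 14, 16 of 24 tested targets were called higher and 0 lower (median log2 fold change 2.36), against 5.57% and 2.71% of all genes. The leukocyte markers Ptprc and Itgam, given above, were higher in the same wounds, and their part in the target levels was not tested. The smallest adjusted p belonged to Saa3, an acute phase protein (21.99 CPM in WT and 2523 in Col5a1CKO by median, log2 fold change 6.53, edgeR adjusted p = 0.00314), Nos2, the inducible nitric oxide synthase (2.50 and 128 CPM, 5.91), and the cytokine Il6 (0.0692 and 25.5 CPM, 7.70). In vehicle wounds 23 of 25 targets were higher (17.5% of all genes), led by the monocyte chemokine Ccl2 (6.79 and 50.1 CPM, 2.67, adjusted p = 0.000762), Il6 (6.35) and the stromelysin gene Mmp3 (5.61). The 1 target called lower was Ccl20, a chemokine also made by keratinocytes (5.43 and 0.0559 CPM by median, -6.34). Summed leukocyte markers were 54.8 to 91.6 CPM in WT vehicle, 528 to 2416 CPM in Col5a1CKO vehicle and 185 to 468 CPM in cilengitide wounds. With cilengitide 11 of 25 targets were called lower in Col5a1CKO wounds (6.59% of all genes), led by Lif, a cytokine of the IL-6 family (8.93 and 3.33 CPM, -1.55, adjusted p = 0.00625), Il6 (31.6 and 3.15 CPM, -3.13) and the neutrophil chemokine Cxcl1 (197 and 21.5 CPM, -3.50), and Ccl20 was higher (4.23). Against WT vehicle, 10 of 25 targets were higher after cilengitide (5.15% of all genes), led by Mmp3 (3.11), Saa3 (6.40) and Icam1 (1.0), and Ccl20 was lower (-2.10). The wounds with WT fibroblasts had 8 of 25 targets higher than WT wounds (3.77% of all genes), led by Tnfaip3 (2.92), Saa3 (5.62) and Nos2 (6.70), and 0 called either way against Col5a1CKO wounds, as at day 19 between genotypes.

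The other genes of the IL-1 pathway, 42 in the list, moved in both directions. At day 14, 4 of 37 tested were called higher and 2 lower (median log2 fold change 0.08), where 5.57% and 2.71% of all genes were called. Higher were Irak3, an inhibitor of IL-1 receptor signalling (log2 fold change 1.70, edgeR adjusted p = 0.0201), Il18rap, the second chain of the IL-18 receptor (3.79), Gsdmd, the pore protein that releases IL-1 beta (1.31), and Nfkb2. Lower were Traf6, the adaptor downstream of the receptor (125 and 46.4 CPM by median, -1.35, adjusted p = 0.0102), and Pycard, the inflammasome adaptor ASC (230 and 19.4 CPM, -2.50, adjusted p = 0.0103), each without overlap. In vehicle wounds 9 of 37 were higher (17.5% of all genes), led by Gsdmd (9.98 and 56.5 CPM, 2.58, adjusted p = 0.00193), Il18rap (1.19 and 44.0 CPM, 5.13) and Relb (1.55), and 2 of 37 were lower (13.4% of all genes), Il1f10 (IL-38, 6.54 and 0.0513 CPM, -6.73) and Pycard (102 and 17.3 CPM, -2.41). Cilengitide was followed by 6 of 40 lower (6.59% of all genes), led by Gsdmd (56.5 and 23.02 CPM, -1.30), Relb (-1.19) and Nfkb2 (-1.38), and by 2 of 40 higher (6.48% of all genes), Il1f10 (4.19) and Pycard (17.3 and 67.0 CPM, 1.65). Against WT vehicle, Gsdmd (1.32), Il18rap (2.44) and Prtn3 (4.25, medians of 0.0178 and 0.399 CPM) were higher after cilengitide (3 of 38, 5.15% of all genes), and Il1f10 (-2.49), Il1f5 (-1.01) and Il1f6 (-1.18) were lower (3 of 38, 3.43% of all genes). In wounds with WT fibroblasts, Relb (2.01), Nfkb2 (2.17) and Prtn3 (5.26, medians of 0.0 and 1.67 CPM) were higher than in WT (3 of 38, 3.77% of all genes), and 5 of 38 were lower (2.06% of all genes), led by Pycard (-1.76), Il1f8 (IL-36 beta, 185 and 21.5 CPM, -3.36) and Il1f6 (IL-36 alpha, 388 and 53.6 CPM, -2.90). In WT wounds 6 of 38 fell from day 14 to day 19 (4.25% of all genes), led by Pycard (-1.94), Il1f9 (IL-36 gamma, 256 and 43.2 CPM, -2.97) and Traf6 (-1.70).

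The genes most like each member were taken as those with the largest smaller-of-2 Spearman correlation over the 23 and the 12 libraries, among 11493 symbols with a mean of at least 5 CPM in both tables. These are descriptions over wounds that differ in levels of cell type markers and in library set. For Il1b they were Srgn (0.99 and 0.99), Cd14 (0.97 and 0.99) and Stfa2l1 (0.97 and 0.98), and for Il1a they were Niacr1 (0.90 and 0.94), Agpat9 (0.88 and 0.95) and Il1rn (0.93 and 0.85). Il1rn was most like Niacr1 (0.94 and 0.94), Tpd52 (0.93 and 0.89) and Gadd45a (0.87 and 0.86), and Il1r2 was most like Arg2 (0.94 and 0.93). Il1r1 varied with Pcsk5 (0.97 and 0.98), Chsy1 (0.98 and 0.97) and Csgalnact1 (0.96 and 0.97), and Il1rl1 with Hgf (0.94 and 0.93), Chi3l3 (0.89 and 0.94) and Mmp13 (0.89 and 0.95). Il1rap was most like Jhdm1d (0.92 and 0.92). Il33 was most like Tmprss11g (0.89 and 0.95), Dsc2 (0.89 and 0.96) and Epgn (0.86 and 0.90), and Il18 was most like Gm94 (0.97 and 0.97), Hsdl2 (0.96 and 0.96) and Lipm (0.95 and 0.97). Among the members themselves, Il1r1 and Il1rl1 had a rho of 0.84 and 0.90, Il1r1 and Il18 of -0.81 and -0.94, and Il33 with its receptor Il1rl1 of -0.09 and -0.09.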

How the data were processed

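The authors deposited raw counts, with a row per RefSeq transcript for the fibroblast and time-course wounds and a row per gene symbol for the cilengitide wounds. Their methods describe single-end reads aligned by HISAT2 to mm9 and counted on RefSeq exons in SeqMonk. Whether the cilengitide libraries were treated alike is not given in the sources used here. For each symbol the row with the largest total was kept. All columns of counts were matched to samples by name, and groups were taken from the sample titles. The record names a fibroblast treatment for the Col5a1CKO wounds of day 19, which their titles do not, and the titles were followed.

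Each pair of groups was fitted by robust quasi-likelihood in edgeR 4.0.16 (R 4.3.3) after TMM scaling and filterByExpr (minimum count 10), p-values were adjusted by Benjamini-Hochberg over all genes tested, and the fit was tested on simulated data. CPM used TMM factors over all libraries of a table, and RPKM the deposited transcript lengths. Levels are not comparable between the tables. Ratios had 0.5 counts added to each gene and were tested in scipy 1.17.1 under Python 3.11.15. Library sets were divided where the median log2 level of the 10% most GC-rich genes, less that of the 10% most GC-poor, had its widest gap. The members, gene lists and tests were chosen with earlier results of these data known. All 9 members are named, and from each list up to 3 called genes in each direction with the smallest adjusted p. Nfkb2 at day 14, Ptprc, Itgam and the marker genes were named outside this rule. Alternatives were DESeq2 1.42.0, other scalings, filters, thresholds and RefSeq rows, the library set, the replicate letter and leaving out wounds.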

Additional observations from a re-analysis of the deposited data

How the results depend on the processing

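Of 302 recomputed counts of called members, 237 stayed within 1.5 times the reported count and 65 did not. Of 1359 values of single genes 1185 kept their direction and side of the threshold, 62 passed it newly, 75 no longer passed it and 37 changed sign, and of 204 ratio values these numbers were 170, 2, 25 and 7. At day 14 the 2 members higher in Col5a1CKO became 4 at an unadjusted p, 1 within either library set and 1 to 2 with a wound left out, and the 1 lower became 0 within the upper set. At day 19 the count of 0 became 3 at an unadjusted p and with DESeq2, and 0 to 1 with a wound left out. For wounds with fibroblasts against WT the 1 higher became 0 at 3-fold, 2 at an unadjusted p or with the library set as covariate, 5 within the upper set and 0 to 1 with a wound left out. For cilengitide against vehicle in Col5a1CKO the 3 lower became 7 at an unadjusted p, with DESeq2 and with all groups in 1 fit, and 0 to 6 with a wound left out, and the 1 higher became 0 to 2. Against WT vehicle the 2 higher became 1 at 3-fold, 4 at an unadjusted p and with DESeq2, 0 with all groups in 1 fit and 0 to 4 with a wound left out, and the 1 lower became 0 at 3-fold and with all groups in 1 fit, and 0 to 1 with a wound left out. Between days in WT the 0 higher became 1 with the library set as covariate or within the upper set, and the 2 lower became 6 at an unadjusted p, 5 with DESeq2 and 0 to 2 with a wound left out. In Col5a1CKO the 2 lower became 5 at an unadjusted p and with DESeq2, 1 with RLE factors, with all genes of at least 1 count or with the RefSeq rows summed, and 0 with the library set as covariate, within the upper set or without any day 19 wound. The number of all genes called moved with the setting too. Within the upper set 2999 of 15133 genes were higher with fibroblasts than in WT, and 578 of 15318 in the reported fit. At day 19, 815 of 15136 genes were higher at an unadjusted p and 708 of 18932 with DESeq2. The cause of these changes was not tested.

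The labels do not say what the replicate letters share, and same-letter deviations correlated at -0.397 to 0.484 at day 14, -0.415 to -0.322 at day 19, -0.159 to 0.305 for fibroblasts against Col5a1CKO and 0.058 to 0.312 against WT, so the letters were not taken to pair the wounds. With the letter as a replicate block, wounds with fibroblasts against Col5a1CKO had 1 member higher (Il33, 2.38) and 2 lower (Il1r1, -1.41, and Il1rl1, -1.79) in place of 0 and 0, with Il18 at 0.98 and 1417 genes higher and 1114 lower in all. That block sets Col5a1CKO wounds a to c of the lower library set against fibroblast wounds of the upper set, so it cannot be told apart from the library set. With the block Il1rap against WT was -0.29, Il1rn at day 19 was -0.14 and the ratio of Il1r2 to Il1r1 with fibroblasts against WT was 0.15. With library size only, Il1rn at day 19 was -0.19. With the library set as covariate and within the upper set, the values with fibroblasts against Col5a1CKO were 0.41 and 0.45 for Il1a, 0.26 and 0.30 for Il1b, 0.17 and 0.21 for Il1rn and 0.22 and 0.27 for Il1rap, and Il1r1 was 0.05 within the upper set. Between days they were 1.15 and 1.15 for Il1b and 0.32 and 0.33 for Il1rl1 in WT, and 0.84 and 0.89 for Il1r1 and 0.68 and 0.73 for Il1rl1 in Col5a1CKO.

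With 1 wound left out, log2 values that changed sign ran from -0.94 to 0.39 for Il33 at day 14, from -0.46 to 0.69 for Il1rn and -0.78 to 0.32 for Il1r2 at day 19, and from -1.58 to 1.43 for Il33 in vehicle wounds. With fibroblasts against Col5a1CKO they ran from -0.41 to 0.04 for Il1b, -0.80 to 0.01 for Il1rn and -0.34 to 0.02 for Il18, and against WT from -0.08 to 1.0 for Il1a, -0.29 to 0.44 for Il1rap and -0.01 to 0.75 for Il33. With cilengitide against WT vehicle they ran from -0.51 to 0.54 for Il1a, -0.01 to 0.66 for Il1rn and -0.32 to 0.47 for Il1r2, and between days in Col5a1CKO from -0.22 to 0.08 for Il1r1. The ratios of Il1a to Il1b (-1.24 to 0.24) and Il1b to Ptprc (-0.89 to 2.49) at day 19 and of Il1r2 to Il1r1 in vehicle wounds (-0.88 to 0.72) did so too. None of these values passed a test as reported. A comparison of 3 against 3 wounds cannot reach an exact p under 0.1.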
